A study of Caenorhabditis elegans with 9 samples.

Results

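The loss of *sma-3* was described from 6 of the 9 libraries of an RNA-seq series in the nematode *C. elegans*: the 3 *sma-3(wk30)* libraries were compared with the 3 libraries of N2, the wild-type strain, over all genes. The libraries were chosen by their labels alone. Each was made from polyA RNA of whole worms that had been synchronized by hypochlorite treatment, grown on plates at 20 °C and collected at the late L2 stage, the second of the larval stages. The *sma-3(wk30)* allele belongs to the strong loss-of-function or null alleles of the study, and no other allele or agent is named for either genotype. The remaining 3 libraries, from *sma-9(ok1628)* worms, entered the estimate of the spread and are named only where a result turns on them. Of 46875 genes listed, 13105 reached 1 CPM (the reads of a gene per 1000000 reads of the normalized library size) in at least 3 libraries and were tested.

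DBL-1 is a BMP-like ligand that neurons and other cells secrete. It binds receptors on the epidermis, where the Smad proteins SMA-2, SMA-3 and SMA-4 carry the signal to the nucleus. Worms that lack the signal hatch at a normal size and then grow into small adults. The epidermis also builds the cuticle, a collagen coat that is replaced at every larval moult, so that cuticle genes are switched on and off in a fixed order within each larval stage.

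In the *sma-3* libraries between 58889275 and 82735807 reads lay on genes, against 69602298 to 73484382 in the wild-type libraries, so that a gene with 3 reads stood at 0.0365 to 0.0503 CPM in *sma-3* and at 0.0428 to 0.0449 CPM in wild-type libraries. A first principal component holding 65.5% of the variance of these 6 libraries separated the genotypes, and the second (20.8%) set wild-type replicate 3 apart from wild-type replicates 1 and 2. The labels do not say which cultures were grown together, and the library numbers in the deposited table are all higher for *sma-3* than for wild-type, so that library number and genotype cannot be told apart. In whole worms, fewer cells of a type and less RNA per cell cannot be told apart either.

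In *sma-3* worms 1596 of the tested genes were lower than in wild-type (12.2%) and 1227 were higher (9.36%), which together makes 21.5% called at an adjusted p of at most 0.05 (limma, two-sided). For 41.4% of the tested genes the values of the 3 *sma-3* and the 3 wild-type libraries did not overlap. Among called genes this held for all 1596 lower and for 1220 of the 1227 higher, so that a lack of overlap adds little to a call. It was required of the 12 genes per direction named for the largest change. The decreases were many and small, with a median log2 fold change of −0.45 among the genes called lower, and the increases larger, with a median of 0.65. A change of at least 4-fold was reached by 22 genes called lower and by 50 called higher. The genes called higher included more weakly expressed ones: 40.3% of them averaged under 5 CPM in wild-type, against 8.9% of the genes called lower and 25% of all tested genes. Over all tested genes the median log2 fold change was −0.013. The number of calls moved with single libraries. It was 784 lower and 596 higher without *sma-3* replicate 2, 807 and 545 without *sma-3* replicate 3, and 994 and 815 without *sma-3* replicate 1. The balance of the directions moved with the scaling. With libraries scaled to equal totals, 878 genes were lower and 1567 higher, which puts 35.9% of the calls on the lower side in place of 56.5%, and the median over all tested genes was then 0.071. The changes were described by 84 lists of genes with a shared role, each read against the shares over all tested genes.

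**Figure D1:**
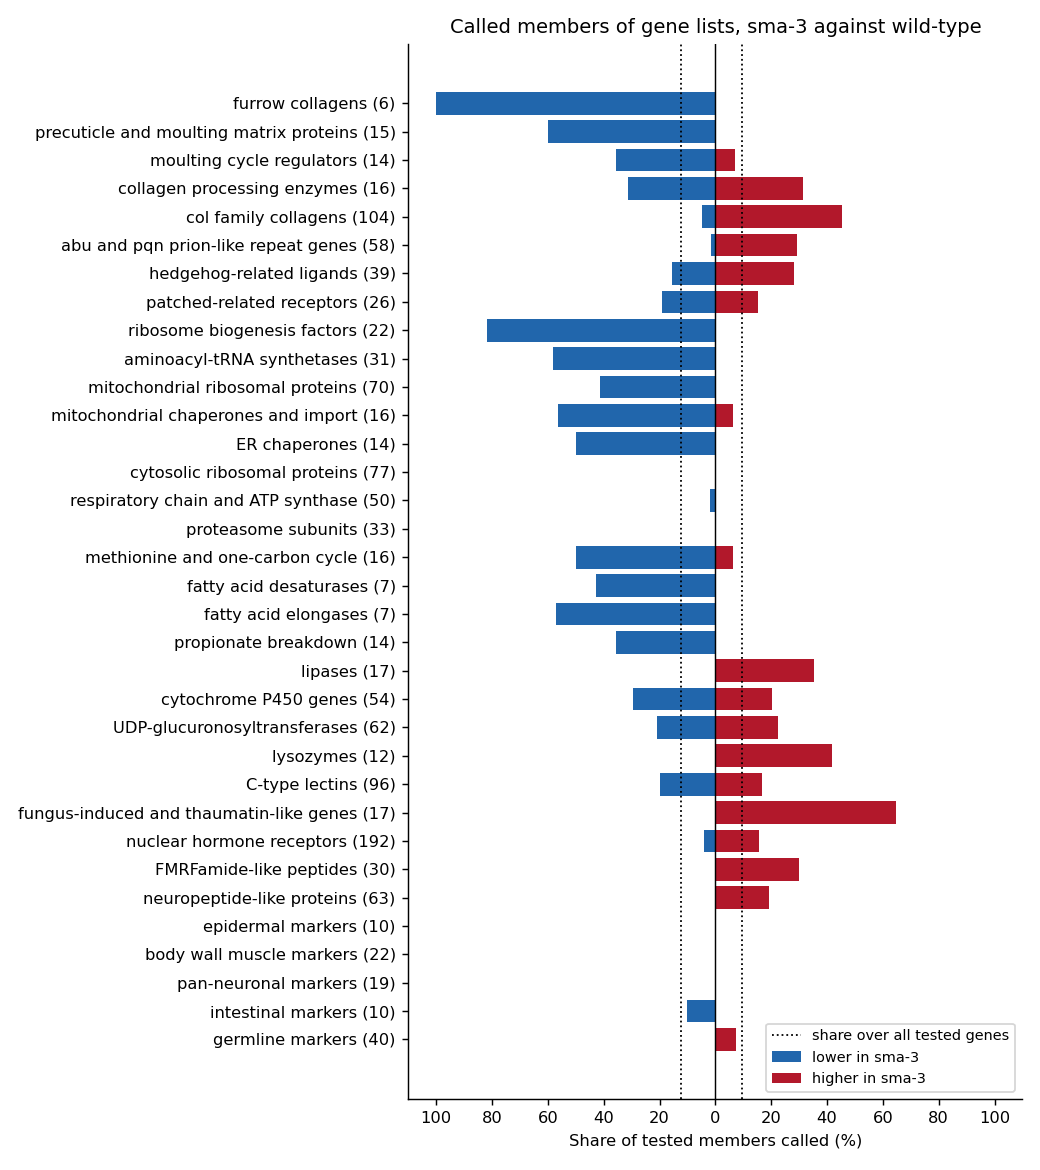
Share of the tested members of 34 gene lists that were called lower (bars to the left) or higher (bars to the right) in *sma-3* than in wild-type worms, in percent, with the number of tested members in brackets; dotted lines mark the shares over all tested genes, 12.2% lower and 9.36% higher. Furrow collagens (100% lower) and ribosome biogenesis factors (81.8% lower) stand at one end, fungus-induced and thaumatin-like genes (64.7% higher) and the collagens named col (45.2% higher) at the other, and the epidermal, muscle and pan-neuronal marker lists have no call.

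The *sma-3* gene itself (WBGene00004857, WBcel235 chromosome III, positions 6860974 to 6863968, minus strand) was the first check of the labels. It had 12.6, 13.3 and 14.2 CPM in *sma-3* libraries, against 26.5, 21.4 and 22.4 CPM in wild-type. No *sma-3* library reached the wild-type range, and the gene was called lower (log2 fold change −0.76 ± 0.09 (SE), adjusted p = 0.0010). The position of the wk30 lesion is not given in the sources used here, so that the level of the transcript does not test the lesion itself. Of the 15 genes of the DBL-1 pathway, 3 were lower, 2 were higher and 10 were not called, and all 5 calls held with any 1 of the 6 libraries left out. Without wild-type replicate 2, 4 were lower, and without wild-type replicate 3, 4 were higher.

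The 2 other genes called lower code for proteins that work directly with SMA-3. For *sma-6*, the type I receptor, there were 22.8, 22.6 and 23.6 CPM in *sma-3* libraries, against 37.8, 37.4 and 44.6 CPM in wild-type, and for *sma-2*, the partner Smad, 8.47, 9.56 and 9.73 CPM in *sma-3* libraries, against 14.4, 16.2 and 15.9 CPM in wild-type. The 3 genes thus lay at roughly the same distance below wild-type, without overlap (log2 fold change −0.77 ± 0.09 (SE), adjusted p = 0.0011 for *sma-6*, and log2 fold change −0.69 ± 0.11 (SE), adjusted p = 0.0032 for *sma-2*). The third Smad, *sma-4*, was not called, with 39.2, 34.9 and 35 CPM in *sma-3* libraries, against 36.5, 35.2 and 40.4 CPM in wild-type, and neither were the ligand gene *dbl-1* (log2 fold change 0.08) and the type II receptor gene *daf-4* (0.24). Both genes called higher code for proteins at the cell surface or outside the cell. The gene *lon-1*, a secreted protein whose loss makes worms long and whose mRNA is known to be held down by the pathway, had 191, 188 and 179.9 CPM in *sma-3* libraries, against 100.5, 116 and 95.3 CPM in wild-type (log2 fold change 0.84 ± 0.11 (SE), adjusted p = 0.0015). For *sma-10*, a membrane protein with leucine-rich repeats that assists the receptors, the libraries had 53.1, 50.3 and 49.4 CPM in *sma-3* libraries, against 27.2, 24.4 and 34.4 CPM in wild-type (log2 fold change 0.82 ± 0.16 (SE), adjusted p = 0.0077). All 3 *sma-3* libraries lay above the highest wild-type library for both genes. The genes of the glypican *lon-2* and of the co-receptor *drag-1*, as well as *sma-9*, *tsp-21*, *crm-1*, *unc-40* and *adt-2*, were not called, at log2 fold changes of −0.32 to 0.31. Of the 6 listed genes of the dauer TGF-beta branch, which shares *daf-4* with this pathway, none was called by limma or by voom (median 0.17), and 2 had an unadjusted p under 0.05. Without wild-type replicate 2, 1 of them was called higher, and without wild-type replicate 3, 3 were.

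**Figure D2:**
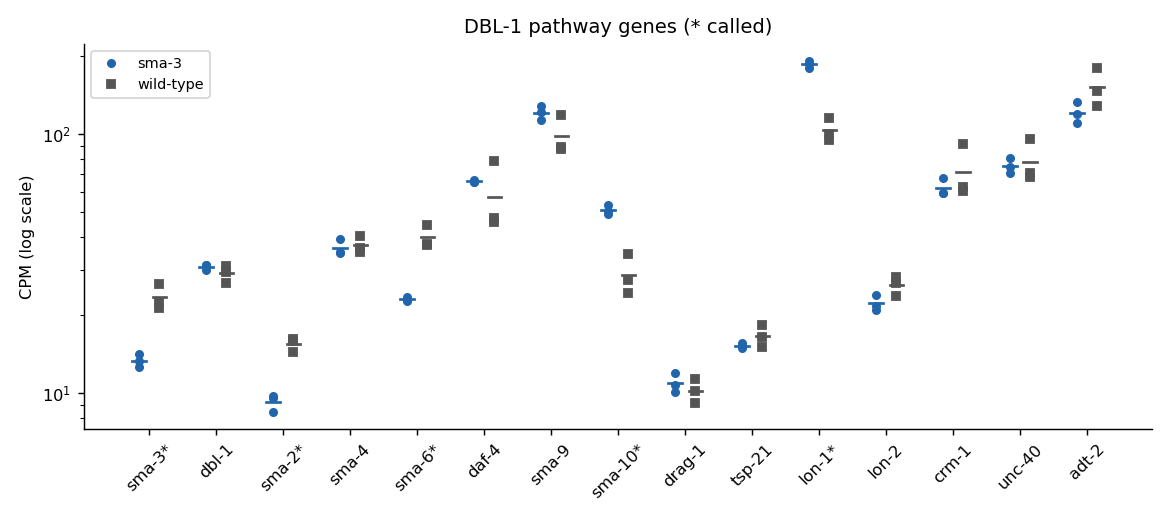
CPM on a log scale of the 15 DBL-1 pathway genes in each *sma-3* library (circles) and each wild-type library (squares), with a bar at each group mean; an asterisk marks a called gene. The points of *sma-3*, *sma-2* and *sma-6* lie below, and those of *lon-1* and *sma-10* above, all wild-type points of the same gene.

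The largest single decreases did not form a functional group. Among the 12 genes called lower with the largest change, T28A11.2 had 0.569, 0.520 and 0.413 CPM in *sma-3* libraries, against 65.7, 71.2 and 57.4 CPM in wild-type, and *mltn-3* had 0.0791, 0.0335 and 0.170 CPM in *sma-3* libraries, against 29, 37.6 and 38.9 CPM in wild-type. Both fell to almost nothing in every *sma-3* library (log2 fold change −5.45 ± 0.11 (SE), adjusted p = 1.3e-08 for T28A11.2, and log2 fold change −5.04 ± 0.18 (SE), adjusted p = 3.2e-07 for *mltn-3*). The others were *wdfy-3*, *arrd-18*, *vha-7*, F14D2.19, ZC239.6, *arrd-19*, F35F10.6, *fbxa-64*, Y46D2A.2 and F35F10.5, at log2 fold changes of −5.22 to −3.09. All 12 kept their call with any 1 library left out.

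Many of these genes are neighbours. Of 12234 genes with at least 1 CPM in all 3 wild-type libraries, 31 had an *sma-3* mean under one eighth of the wild-type mean: 14 on chromosome II, 3 on chromosome IV, 14 on chromosome V and 0 on chromosomes I, III and X. Following such genes along the chromosomes (WBcel235, the assembly of WS245), 17 of the 31 stood in 3 unbroken stretches of at least 2 expressed genes. The longest, chrV:3276956-3339076 (62.1 kb), held 12 genes, 11 of them protein-coding and 1 a pseudogene, and all 12 were called lower. Their *sma-3* means were 0.584% to 5.35% of the wild-type means, whereas the means of the *sma-9* libraries were 79.2% to 209% of them. Among these genes *arrd-18*, which codes for an arrestin domain protein, had 0.158, 0.403 and 0.340 CPM in *sma-3* libraries, against 36.1, 35.1 and 45.7 CPM in wild-type, and *fbxa-64*, an F-box gene, had 0.348, 0.335 and 0.316 CPM in *sma-3* libraries, against 13.4, 15.5 and 17.3 CPM in wild-type. The expressed neighbours on either side of the stretch were not called, and *fbxa-65*, the next gene after it, stood at 81.1% of wild-type.

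**Figure D3:**
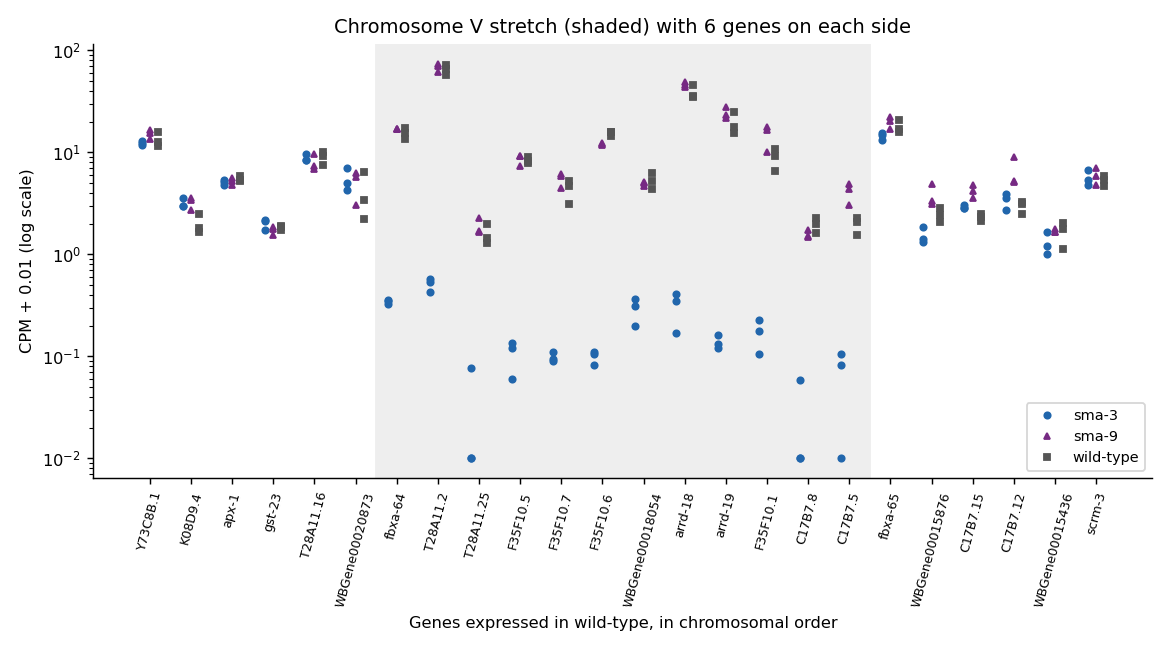
CPM + 0.01 on a log scale for the 12 genes of the chromosome V stretch (shaded) and the 6 expressed genes on each side, in chromosomal order, in every *sma-3* (circles), *sma-9* (triangles) and wild-type (squares) library. Inside the shaded stretch all *sma-3* points lie below 1 CPM while the *sma-9* points stay near the wild-type points, and outside it the genotypes lie close together.

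The stretch at chrIV:12640462-12676004 (35.5 kb) held 3 genes, *vha-7*, *wdfy-3* and T23B5.4. *vha-7*, a gene for the a-subunit of the proton pump V-ATPase, had 0.569, 0.855 and 0.875 CPM in *sma-3* libraries, against 45.7, 40.8 and 51.1 CPM in wild-type, and *wdfy-3*, which codes for a large BEACH and WD40 repeat protein, had 0.443, 0.134 and 0.425 CPM in *sma-3* libraries, against 43.8, 46.1 and 56.3 CPM in wild-type. The *sma-3* means of the 3 genes were 0.685% to 1.67% of wild-type, and those of the neighbours *ark-1* and *prmt-9* were 95.2% and 96.1%. The third stretch, chrII:3677535-3684517, held F19B10.10 and F19B10.1. It lies within a wider window, chrII:3177963-3757428, in which 22 of 46 expressed genes were lower and 3 higher, among them 10 under one eighth. This window was drawn after its values were seen. With the roles exchanged, 0 stretches were found of genes under one eighth in wild-type. No DNA sequence of these strains was analysed here, and what separates the stretches from their neighbours was not tested. Leaving the 17 genes out of the count changed the number called lower to 1579.

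The largest increases were spread over several functions. Among the 12 with the largest change, *mtl-2*, one of the metallothioneins, which bind zinc and cadmium, had 162, 205 and 240.2 CPM in *sma-3* libraries, against 15.5, 12.8 and 31.3 CPM in wild-type (log2 fold change 3.37 ± 0.40 (SE), adjusted p = 0.00098). The saposin-like gene *spp-9* had 11.3, 10.2 and 34.8 CPM in *sma-3* libraries, against 1.71, 0.0295 and 0.314 CPM in wild-type, and *asp-12*, an aspartyl protease gene, had 203, 167 and 380.5 CPM in *sma-3* libraries, against 26, 7.94 and 41.3 CPM in wild-type. For each of the 3 the lowest *sma-3* library lay well above the highest wild-type library, though *sma-3* replicate 3 exceeded the other 2 for *spp-9* and *asp-12*. The F-box gene *fbxa-182* varied little between libraries of a genotype, with 10.2, 9.83 and 8.97 CPM in *sma-3* libraries, against 0.763, 0.707 and 0.799 CPM in wild-type (log2 fold change 2.6 ± 0.09 (SE), adjusted p = 2.8e-07). The others were C06B3.7, *pqn-2*, Y58A7A.5, *pud-3*, F48G7.8, *irg-1*, a gene known as part of the response to pathogens, and the collagens *col-133* and *col-162*. Their log2 fold changes were 2.62 to 3.12. All 12 kept their call with any 1 library left out except *col-133*, whose adjusted p reached 0.056 without *sma-3* replicate 2 or 3.

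Cuticle genes moved in groups and in opposite directions. The annular furrows of the cuticle are made of 6 collagens, *dpy-2*, *dpy-3*, *dpy-7*, *dpy-8*, *dpy-9* and *dpy-10*, whose loss makes worms short and fat. All 6 were lower in *sma-3*, at a median log2 fold change of −1.22, against −0.013 over all tested genes, and all 6 stayed called with any 1 library left out. The largest change was that of *dpy-8*, with 311, 226 and 185 CPM in *sma-3* libraries, against 567, 567 and 636 CPM in wild-type (log2 fold change −1.32 ± 0.16 (SE), adjusted p = 0.0011). For *dpy-10* there were 188, 129 and 125 CPM in *sma-3* libraries, against 347, 310.3 and 437 CPM in wild-type, and for *dpy-7* 239, 175 and 158 CPM in *sma-3* libraries, against 451, 412 and 499 CPM in wild-type. Summed over the 6 genes, *sma-3* libraries held 1386, 999 and 885 CPM, against 2444, 2290 and 2824 CPM in wild-type libraries, a ratio of the means of 0.433. *sma-3* replicate 1 was the highest of the *sma-3* libraries and still far below every wild-type library. *lin-42*, whose level follows the moults, was lower as well, and the part of stage in the difference was not tested.

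The matrix that precedes each new cuticle showed the same direction. Of 15 genes for precuticle and moulting matrix proteins, 9 were lower and 0 higher (median −0.78), but the number of calls was 5 without *sma-3* replicate 2 or without *sma-3* replicate 3. For *lpr-3*, which codes for a lipocalin of the precuticle, the libraries had 533, 373 and 335 CPM in *sma-3* libraries, against 801, 754 and 1086 CPM in wild-type (log2 fold change −1.10 ± 0.20 (SE), adjusted p = 0.0052), and *noah-2*, a zona pellucida domain protein, had 676, 468 and 447 CPM in *sma-3* libraries, against 979, 919 and 1527 CPM in wild-type (log2 fold change −1.09 ± 0.22 (SE), adjusted p = 0.0096). Both were below wild-type in every *sma-3* library. Wild-type replicate 3 was the highest wild-type library for 12 of the 15 genes. The largest changes, of *mlt-11*, a protease inhibitor gene (−1.25), and of *noah-1* (−1.10), which works with *noah-2*, lost their call without *sma-3* replicate 2 or 3, at adjusted p-values of up to 0.056 and 0.075.

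The large family of collagens named col went the other way. Of its 156 listed members 104 were tested, and 47 of these were higher and 5 lower, with a median log2 fold change of 0.94. Among genes averaging at least 5 CPM 26 were higher and 4 lower, and with no filter on level 38 were higher and 5 lower. Summed over the family, *sma-3* libraries held 23249.7, 29656 and 29584 CPM, against 20550.5, 19522 and 10448 CPM in wild-type libraries. The sums do not overlap, and wild-type replicate 3 was low: it was the lowest of the wild-type libraries for 82 of the 104 genes. The number called higher was 42 without it, and 29 and 27 without *sma-3* replicate 2 and without *sma-3* replicate 3. The number called lower was 3 without *sma-3* replicate 2 and 8 without wild-type replicate 3. The members with the largest increases included *col-162*, with 308, 484 and 489 CPM in *sma-3* libraries, against 127, 87 and 24.5 CPM in wild-type (log2 fold change 2.67 ± 0.54 (SE), adjusted p = 0.0090), and *col-91*, with 128, 178 and 196 CPM in *sma-3* libraries, against 61.6, 40.1 and 15.3 CPM in wild-type (log2 fold change 2.25 ± 0.41 (SE), adjusted p = 0.0056). In both genes wild-type replicate 1 lay far above wild-type replicate 3, a wider range than among the *sma-3* libraries. The largest decrease was that of *col-47*, with 6.67, 5.55 and 4.96 CPM in *sma-3* libraries, against 13.3, 12.3 and 15.8 CPM in wild-type (log2 fold change −1.13 ± 0.12 (SE), adjusted p = 0.00062). Of 13 other collagens known for body shape, *dpy-17* was lower and *bli-1* and *bli-6* were higher, and without wild-type replicate 3, the lowest wild-type library for 12 of the 13, there were 3 lower. The 2 bli genes, known for struts of the later, adult-type cuticle, were low in both genotypes: *bli-6* had 4.98, 4.63 and 7.18 CPM in *sma-3* libraries, against 1.15, 1.43 and 0.285 CPM in wild-type.

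**Figure D4:**
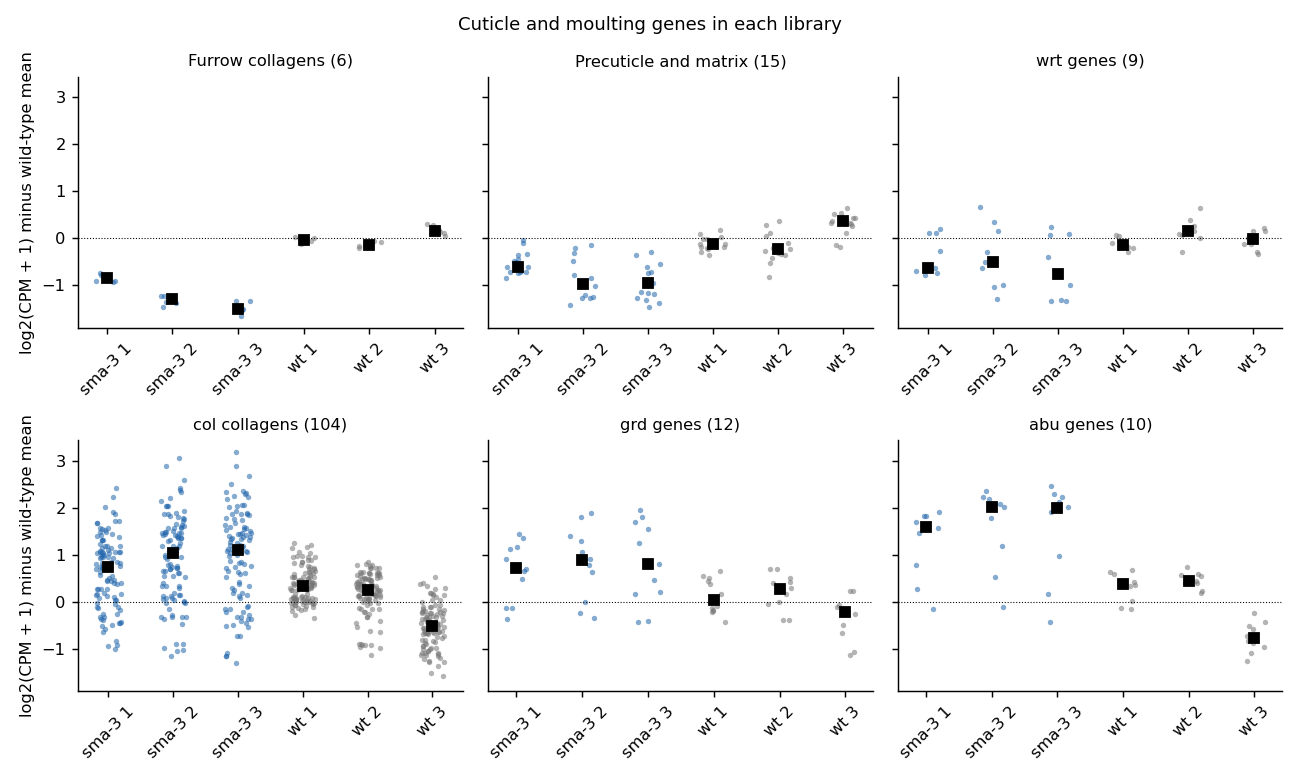
log2(CPM + 1) of each gene relative to its wild-type mean in the 3 *sma-3* libraries (left in each panel) and the 3 wild-type libraries (wt, right), for furrow collagens, precuticle and moulting matrix genes, wrt genes, col collagens, grd genes and abu genes; points are genes, squares are library medians, and replicate numbers have no order. Furrow collagens lie below 0 in all *sma-3* libraries and close to 0 in all wild-type libraries, while the col and abu genes lie mostly above 0 in *sma-3* and below 0 in wild-type replicate 3.

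Of 16 tested enzymes that process collagen, 5 were lower, 5 higher and 6 not called. The lower genes included *phy-2*, a subunit of prolyl 4-hydroxylase, with 103, 93.6 and 92.5 CPM in *sma-3* libraries, against 163, 155 and 167 CPM in wild-type (log2 fold change −0.74 ± 0.08 (SE), adjusted p = 0.00062), and *dpy-11*, a thioredoxin-like membrane protein, with 359.6, 338 and 321 CPM in *sma-3* libraries, against 489, 507 and 487 CPM in wild-type (log2 fold change −0.54 ± 0.07 (SE), adjusted p = 0.0015), whose loss shortens the body. Lower too were *dpy-18*, another prolyl 4-hydroxylase subunit, and the disulphide isomerase genes *pdi-6* (−0.55) and *pdi-2* (−0.53), of which *pdi-2* lost its call without *sma-3* replicate 2 or 3 (adjusted p up to 0.076). Those higher included genes for proteins that cross-link the finished matrix outside the cell. The peroxidase gene *mlt-7* had 172, 207 and 235 CPM in *sma-3* libraries, against 99.3, 78.3 and 60.2 CPM in wild-type (log2 fold change 1.37 ± 0.18 (SE), adjusted p = 0.0013). *doxa-1*, a maturation factor of the dual oxidase, and *tsp-15*, a tetraspanin of the same complex, rose with log2 fold changes of 1.04 and 0.69. *phy-2*, *dpy-11*, *pdi-6*, *mlt-7*, *doxa-1* and *tsp-15* kept their call with any 1 library left out, without overlap. Genes higher numbered 3 without *sma-3* replicate 2, *sma-3* replicate 3 or wild-type replicate 1, and genes lower 3 without *sma-3* replicate 3.

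Secreted proteins related to hedgehog, many of which are made by the epidermis around a moult, split by subfamily. Of 39 tested, 6 were lower and 11 higher (median 0.13). The lower genes were *qua-1*, whose loss blocks moulting, and 5 of the 9 wrt genes. *qua-1* had 438, 368 and 320.0 CPM in *sma-3* libraries, against 926, 1215 and 1101 CPM in wild-type (log2 fold change −1.53 ± 0.18 (SE), adjusted p = 0.00088), and *wrt-10* had 222, 150.0 and 149 CPM in *sma-3* libraries, against 387, 303 and 433 CPM in wild-type (log2 fold change −1.11 ± 0.18 (SE), adjusted p = 0.0036). Summed over the wrt genes, *sma-3* libraries held 720, 605 and 516 CPM, against 1084, 1146 and 1259 CPM in wild-type libraries. The grd genes ran opposite, with 7 of 12 higher and 0 lower. Among them *grd-13* had 102, 119 and 147 CPM in *sma-3* libraries, against 65.7, 43.1 and 31.6 CPM in wild-type (log2 fold change 1.42 ± 0.23 (SE), adjusted p = 0.0033). The division into wrt and grd genes was made after the values were seen. Summed over the grd genes, *sma-3* libraries held 883, 1089 and 1127 CPM, against 577, 613 and 367 CPM in wild-type libraries. Without *sma-3* replicate 1, 2 or 3, 5, 3 and 2 of the hedgehog-related genes were called higher. Among 26 patched-related genes, which code for membrane proteins of the same ancient family, 5 were lower and 4 higher, and 3 were lower without *sma-3* replicate 3. *ptr-4* had 259, 212 and 188 CPM in *sma-3* libraries, against 346, 401 and 516 CPM in wild-type and *ptr-3* had 33.3, 44.8 and 49.1 CPM in *sma-3* libraries, against 16.7, 17.2 and 9.61 CPM in wild-type, with no overlap in either and log2 fold changes of −0.93 and 1.51.

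Regulators of the moulting cycle were mostly below wild-type where called. Of 14, 5 were lower and 1 higher (median −0.29). *lin-42*, the worm relative of Period, whose transcript oscillates with the moults, had 418, 363 and 308 CPM in *sma-3* libraries, against 548, 638 and 776 CPM in wild-type (log2 fold change −0.84 ± 0.14 (SE), adjusted p = 0.0040), and *mlt-4* had 13.2, 11.6 and 10.7 CPM in *sma-3* libraries, against 20.0, 19.5 and 22.3 CPM in wild-type (log2 fold change −0.75 ± 0.10 (SE), adjusted p = 0.0017). *nhr-85*, a nuclear receptor related to Rev-Erb, was higher, with 18.1, 19.7 and 20.2 CPM in *sma-3* libraries, against 13, 13 and 12.9 CPM in wild-type (log2 fold change 0.54 ± 0.07 (SE), adjusted p = 0.0017). The wild-type libraries lay close together for *nhr-85*, while they spread widely for *lin-42*. The number called lower was 3 without *sma-3* replicate 2, *sma-3* replicate 3 or wild-type replicate 2, and 2 with equal library totals, and without wild-type replicate 3 there were 2 higher. Of 10 heterochronic genes, which set the order of larval stages, only *lin-42* was called by limma, and wild-type replicate 3 was the highest wild-type library for 9 of the 10. Without that library 3 were called higher. The metalloprotease gene *nas-37*, which helps to shed the old cuticle, was lower, with 164, 139 and 126 CPM in *sma-3* libraries, against 257, 261 and 315 CPM in wild-type (log2 fold change −0.95 ± 0.12 (SE), adjusted p = 0.0011). Among 35 astacin and ADAMTS metalloproteases it was 1 of 3 that were lower, while 12 were higher, led by *nas-27*, with 15.8, 24 and 25.1 CPM in *sma-3* libraries, against 5.1, 2.99 and 4.07 CPM in wild-type (log2 fold change 2.2 ± 0.27 (SE), adjusted p = 0.0011). Without *sma-3* replicate 2 or without *sma-3* replicate 3, 1 was lower and 5 were higher, and without *sma-3* replicate 1, 7 were higher.

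A further group that tracks the cuticle are abu and pqn genes, for proteins with prion-like repeats, several of them known from the lining of the pharynx. Of 58 tested 17 were higher and 1 lower (median 0.23), and of the 10 abu genes 7 were higher. *abu-10* had 57.3, 75.8 and 76.4 CPM in *sma-3* libraries, against 20.5, 18.2 and 9.94 CPM in wild-type (log2 fold change 2.09 ± 0.33 (SE), adjusted p = 0.0031), and summed over the abu genes *sma-3* libraries held 1513, 1910 and 1726 CPM, against 917, 1327 and 603 CPM in wild-type libraries. Wild-type replicate 3 was the lowest library for all 10. These genes resemble one another closely, so that reads could be split between copies, and each single value is uncertain. The number of the 58 called higher was 10 without *sma-3* replicate 2 and 8 without *sma-3* replicate 3. Cuticlins showed no common direction, with 4 of 28 lower and 4 higher. The number lower was 2 and 1 without *sma-3* replicate 2 and 3, and the number higher 2 without either. *cutl-23* was higher (12.3, 14 and 14.4 CPM in *sma-3* libraries, against 7.84, 5.67 and 4.59 CPM in wild-type) and *cutl-28* lower (19.7, 16.4 and 14.4 CPM in *sma-3* libraries, against 24.1, 27.1 and 33.5 CPM in wild-type), and both kept their call with any 1 library left out.

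Several marker lists of whole tissues held no call, and others did. Of 10 epidermal markers, 22 of body wall muscle, 7 of pharyngeal muscle, 19 of all neurons, 8 of touch receptor neurons, 3 of coelomocytes and 16 basement membrane genes, none was called by limma or by voom, at medians of −0.08 to 0.15. An unadjusted p under 0.05 was reached by 16 of these 85 genes, 11 of them higher and 5 lower, with 8 of the 11 in the body wall muscle list. Without wild-type replicate 3, 4 body wall muscle markers, 2 epidermal, 2 pharyngeal muscle and 1 pan-neuronal marker were called higher. Without wild-type replicate 2, 2 epidermal markers were higher and 1 basement membrane gene lower, and without wild-type replicate 1, 1 pharyngeal muscle marker was higher. Summed body wall muscle markers held 27454, 28948 and 29444 CPM, against 29529, 27082 and 25929 CPM in wild-type libraries, with overlapping groups, and summed epidermal markers held 1941, 2036 and 2076 CPM, against 1960.4, 1963 and 2124 CPM in wild-type libraries. All tissues on the lists gave reads in every library of both genotypes. Of 8 seam cell markers *wrt-2* was lower and *grd-10* higher (median −0.10, and 0.03 without wild-type replicate 3). Summed over this list *sma-3* libraries held 298, 272 and 270.1 CPM, against 343, 340.3 and 402 CPM in wild-type libraries, without overlap, and 3 members were lower without *sma-3* replicate 1. Of 37 ciliated neuron genes 2 were lower and 0 higher (median 0.03), and without wild-type replicate 3 there were 3 higher. Of 17 genes of transmitter synthesis and transport 2 were lower and 1 higher (median −0.005). Of 10 excretory canal markers 1 was higher (median 0.06), a call lost without *sma-3* replicate 2 or 3 or wild-type replicate 2 or 3. *pgp-1*, an intestinal ABC transporter gene, had 38.6, 37.2 and 49.6 CPM in *sma-3* libraries, against 81.9, 84.2 and 86 CPM in wild-type (log2 fold change −1.0 ± 0.12 (SE), adjusted p = 0.00094), the only call among 10 intestinal markers, with 2 lower without wild-type replicate 3. *dyf-3*, which neurons need to build cilia, had 2.97, 3.57 and 2.94 CPM in *sma-3* libraries, against 8.6, 8.48 and 6.36 CPM in wild-type (log2 fold change −1.08 ± 0.15 (SE), adjusted p = 0.0019), and *tdc-1*, the tyrosine decarboxylase of tyramine synthesis, had 24.8, 20.9 and 20.0 CPM in *sma-3* libraries, against 34.2, 36.6 and 52 CPM in wild-type (log2 fold change −0.85 ± 0.17 (SE), adjusted p = 0.0081). Each of the 3 lay below the wild-type range in all *sma-3* libraries. In the list of 5 tested glia markers (median −0.43) *daf-6* and *vap-1* were lower, but both calls were lost without *sma-3* replicate 2 or 3, and 1 was lost without *sma-3* replicate 1. *phat-5*, a pharyngeal gland gene, was higher, with 16.9, 10.0 and 8.53 CPM in *sma-3* libraries, against 1.78, 1.24 and 4.56 CPM in wild-type (log2 fold change 1.92 ± 0.34 (SE), adjusted p = 0.0050), and summed over 7 gland markers (median 0.61) *sma-3* libraries held 384, 442 and 422 CPM, against 254, 313 and 185 CPM in wild-type libraries. It was the only gland marker called, and a second was called higher without wild-type replicate 2.

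Germline markers stayed near the median of all genes as a list: 3 of 40 were higher, none was lower, the median was −0.05, and the summed levels were 1125, 1193 and 1235 CPM, against 1283, 1150.0 and 1126 CPM in wild-type libraries. *mex-3*, an RNA-binding protein of germ cells and embryos, was the member that stayed called with any 1 library left out (39.7, 43.7 and 40.7 CPM in *sma-3* libraries, against 27.6, 30.8 and 29.8 CPM in wild-type). It was the only one higher without *sma-3* replicate 2 or 3 or wild-type replicate 1 or 2. The yolk protein genes differed. They are a small family expressed in the adult intestine, and in these larvae their levels were low, and lowest in wild-type replicate 3 for all 6. All 6 were higher in *sma-3*, of which 5 were still called without *sma-3* replicate 2 or 3 or without wild-type replicate 1 or 3. Of 53 listed sperm and yolk genes only these 6 were tested. The filter counts all 9 libraries, so that a gene low in wild-type can be tested through its *sma-3* values alone. The count of 6 of 6 is thus not a result about the family. *vit-2* had 8.76, 12.8 and 15 CPM in *sma-3* libraries, against 1.27, 2.47 and 0.456 CPM in wild-type (log2 fold change 2.52 ± 0.45 (SE), adjusted p = 0.0052), and *vit-6* had 10.5, 15.3 and 16.7 CPM in *sma-3* libraries, against 1.91, 3.98 and 0.956 CPM in wild-type (log2 fold change 2.29 ± 0.43 (SE), adjusted p = 0.0066). Summed over the 6, *sma-3* libraries held 32.0, 46.4 and 52.4 CPM, against 7.61, 11.9 and 3.72 CPM in wild-type libraries. Some copies are nearly identical, so that the sum is firmer than any one of them.

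Genes for making ribosomes and loading tRNAs were lower by small and even amounts. Of 22 ribosome biogenesis factors 18 were lower and 0 higher (median −0.39), and of 31 aminoacyl-tRNA synthetases 18 were lower and 0 higher (median −0.26). *rbd-1*, needed to process ribosomal RNA, had 101, 91.6 and 99.2 CPM in *sma-3* libraries, against 146, 151 and 149 CPM in wild-type (log2 fold change −0.61 ± 0.07 (SE), adjusted p = 0.00079), and *pro-1*, a WD40 protein with the same role, had 42.6, 39.7 and 41.3 CPM in *sma-3* libraries, against 58.4, 58.7 and 57 CPM in wild-type (log2 fold change −0.48 ± 0.07 (SE), adjusted p = 0.0024). For *lars-1*, the leucyl-tRNA synthetase of the cytosol, there were 329.8, 297 and 313 CPM in *sma-3* libraries, against 404, 418 and 458 CPM in wild-type (log2 fold change −0.44 ± 0.08 (SE), adjusted p = 0.0063). For all 3 the *sma-3* libraries lay close together below the wild-type libraries. Without *sma-3* replicates 1, 2 and 3, 10, 9 and 9 biogenesis factors and 9, 8 and 8 synthetases were called lower, and without wild-type replicate 1 or 2, 11 of the biogenesis factors and 13 or 12 of the synthetases. With equal library totals, where the median over all tested genes was 0.071 in place of −0.013, 9 biogenesis factors and 7 synthetases were lower. Of 77 tested proteins of the cytosolic ribosome itself none was called by limma, with a median of −0.05. This median rested on wild-type replicate 3 and was −0.21 without it, against −0.25 for the synthetases without the same library, and a difference between the lists was not tested. Summed over the list, *sma-3* libraries held 130972, 134465 and 134467 CPM, against 152785, 152287 and 115909 CPM in wild-type libraries. An unadjusted p under 0.05 was reached by 3, and voom called 1. Further, 2 were called higher with equal totals and 4 lower without wild-type replicate 3, which was the lowest wild-type library for 76 of the 77. The proteasome list gave no call by limma or voom among 33 genes (median −0.09), of which 3 had an unadjusted p under 0.05. Without wild-type replicate 3, the lowest wild-type library for 32 of them, 3 were called lower at a median of −0.19. Of 39 translation factors 6 were lower (15.4%), near the 12.2% of all tested genes, and 0 higher (median −0.17). The number lower was 0 without any 1 *sma-3* library, 1 without wild-type replicate 1 or 2 and 13 without wild-type replicate 3. Of 20 genes of DNA replication 4 were lower (20%) and 0 higher, with 0 left when any library other than wild-type replicate 3 was left out.

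Of 70 mitochondrial ribosomal proteins 29 were lower and 0 higher (median −0.23). Wild-type replicate 3 was the lowest wild-type library for 64 of them, and the number of calls was 43 without it, but 7 to 11 when any other of the 6 libraries was left out and 11 with equal totals. *mrpl-1* had 72.7, 74 and 75.7 CPM in *sma-3* libraries, against 97.4, 104 and 96.9 CPM in wild-type (log2 fold change −0.42 ± 0.06 (SE), adjusted p = 0.0023). Of 16 genes for mitochondrial chaperones and import 9 were lower and 1 higher. *hsp-60*, the chaperonin, had 515, 516 and 555 CPM in *sma-3* libraries, against 791, 807 and 717 CPM in wild-type (log2 fold change −0.54 ± 0.08 (SE), adjusted p = 0.0028), and the J-domain gene *dnj-10* had 74.7, 74.1 and 75.9 CPM in *sma-3* libraries, against 106, 107 and 99.6 CPM in wild-type (log2 fold change −0.47 ± 0.06 (SE), adjusted p = 0.0012). Both were lower in all *sma-3* libraries and kept their call with any 1 library left out. *tomm-22*, of the outer membrane translocase, was the member called higher (0.41). The count of this list was 3 without *sma-3* replicate 2 or 3 and 5 without *sma-3* replicate 1 or wild-type replicate 1 or 2. Of 50 subunits and assembly factors of the respiratory chain only *cox-11* was called (−0.41), at a median of −0.07. Without wild-type replicate 3, the lowest wild-type library for 43 of them, 4 were lower at a median of −0.16. The difference between this list and the mitochondrial ribosomal proteins was not tested. Of 26 genes of pyruvate entry and the TCA cycle 8 were lower and 0 higher, led by the pyruvate carrier *mpc-1* (56.2, 59.3 and 59.8 CPM in *sma-3* libraries, against 95.2, 94.2 and 78.9 CPM in wild-type). Without *sma-3* replicate 1 or 3 the count was 3, and without *sma-3* replicate 2, wild-type replicate 1 or wild-type replicate 2 it was 5.

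**Figure D5:**
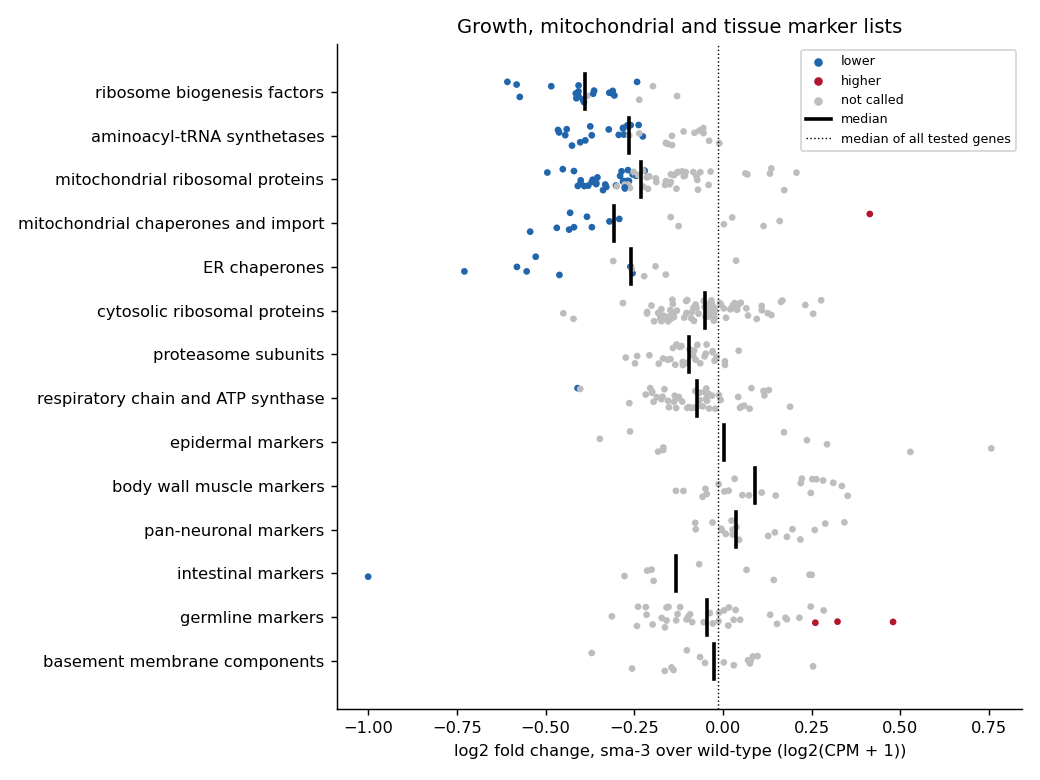
log2 fold change of *sma-3* over wild-type, on the scale of log2(CPM + 1), for each tested gene of 14 lists (points, coloured by call) with the list median (bar) and the median of all tested genes (dotted line). Ribosome biogenesis factors (median −0.39) and aminoacyl-tRNA synthetases (−0.26) lie left of the dotted line, and the medians of cytosolic ribosomal proteins (−0.05), proteasome subunits (−0.09) and tissue markers lie closer to it.

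Of 14 chaperones of the endoplasmic reticulum 7 were lower and 0 higher (median −0.26). *hsp-3*, a worm BiP, had 1629, 1493 and 1489 CPM in *sma-3* libraries, against 2299, 2212 and 2386 CPM in wild-type (log2 fold change −0.58 ± 0.11 (SE), adjusted p = 0.0077). *dnj-27*, a J-domain protein with thioredoxin domains, had the largest change (−0.73) and lost its call without *sma-3* replicate 2 or 3. The list's count was 2 without either of these libraries, and 4 without *sma-3* replicate 1 or wild-type replicate 2. *pdi-2*, *pdi-6* and *phy-2*, given above with the collagen enzymes, belong to this list or work beside it. Of 18 genes of the translocon and of glycosylation 3 were lower (16.7%), near the 12.2% of all tested genes, and 1 with equal totals or quantile normalization. Of the 3, *tram-1* kept its call with any 1 library left out (214, 200.2 and 201 CPM in *sma-3* libraries, against 267, 268 and 261 CPM in wild-type). Leaving out any library but wild-type replicate 3 left 1 member of that list called. Of 16 coat proteins of vesicle traffic 4 were lower, and the count was 0 without *sma-3* replicate 3, 1 without *sma-3* replicate 2, and 2 without *sma-3* replicate 1 or wild-type replicate 2. With equal totals or quantile normalization it was 0. None of the 5 regulators of the unfolded protein response was called by limma or voom, with a median of −0.12. An unadjusted p under 0.05 was reached by 1, and 2 were called lower without wild-type replicate 3.

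The 3 desaturases that make the first double bond in saturated fatty acids were all lower. *fat-7* had 26, 26.4 and 23.1 CPM in *sma-3* libraries, against 67, 85.6 and 123 CPM in wild-type (log2 fold change −1.78 ± 0.19 (SE), adjusted p = 0.00062), *fat-5* had 16.2, 20.9 and 17.6 CPM in *sma-3* libraries, against 34.7, 42.7 and 43.7 CPM in wild-type (log2 fold change −1.11 ± 0.21 (SE), adjusted p = 0.0070), and *fat-6* had 336, 362 and 337 CPM in *sma-3* libraries, against 534, 613 and 539.5 CPM in wild-type (log2 fold change −0.70 ± 0.11 (SE), adjusted p = 0.0030). All 3 kept their call with any 1 library left out. Since *fat-6* and *fat-7* are close copies, reads may have been split between them. The 4 later desaturases, *fat-1* to *fat-4*, looked at after their values were seen, were not called, at log2 fold changes of −0.33 to −0.06. Elongases were lower too, with 4 of 7 called and none higher. *elo-2*, which extends the palmitate chain, had 231, 205 and 202 CPM in *sma-3* libraries, against 364, 299 and 367 CPM in wild-type (log2 fold change −0.69 ± 0.10 (SE), adjusted p = 0.0022), and *elo-5*, needed for branched chain fatty acids, had 131, 137 and 121 CPM in *sma-3* libraries, against 199, 175 and 197 CPM in wild-type. Of 11 genes of fatty acid synthesis and its regulators 3 were lower and 1, *nhr-13*, was higher (median −0.16), with 1 lower without *sma-3* replicate 2 or 3, 2 lower without *sma-3* replicate 1 or wild-type replicate 1, 0 higher without *sma-3* replicate 3 and 3 higher without wild-type replicate 3. *fasn-1*, the fatty acid synthase, was lower at −1.01 but lost its call without *sma-3* replicate 2 or 3 (adjusted p up to 0.072), and *plin-1*, the perilipin of lipid droplets, was lower with any 1 library left out, with 108, 99.3 and 105 CPM in *sma-3* libraries, against 156, 152 and 142 CPM in wild-type. In contrast 6 of 17 lipases were higher and none lower, led by *lipl-2*, a lysosomal lipase, with 15.3, 10.7 and 10.8 CPM in *sma-3* libraries, against 1.6, 1.71 and 3.12 CPM in wild-type (log2 fold change 2.09 ± 0.27 (SE), adjusted p = 0.0014), and *lips-15*, with 104, 96.2 and 86.4 CPM in *sma-3* libraries, against 40.6, 30.1 and 19.4 CPM in wild-type. The lipid chaperone gene *lbp-8* was low in both genotypes, and lower in *sma-3*, with 0.253, 0.520 and 0.766 CPM in *sma-3* libraries, against 3.44, 2.42 and 3.59 CPM in wild-type (log2 fold change −1.46 ± 0.15 (SE), adjusted p = 0.00062). Peroxisomal genes of beta-oxidation went both ways, with 5 of 22 lower and 4 higher. *acox-1.2*, an acyl-CoA oxidase known for making pheromones, had 236, 288 and 229 CPM in *sma-3* libraries, against 582, 733 and 868 CPM in wild-type (log2 fold change −1.52 ± 0.17 (SE), adjusted p = 0.00071), while *acox-3* was higher (0.67). The number lower was 2, 1 and 2 without *sma-3* replicate 1, 2 and 3 and 3 without wild-type replicate 1 or 2, and the number higher was 1 without *sma-3* replicate 3.

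The methionine cycle and its branches formed another group. Of 16 genes 8 were lower and 1 higher (median −0.30). *ahcy-1*, the hydrolase of S-adenosylhomocysteine, had 3559, 3649 and 3262 CPM in *sma-3* libraries, against 7307, 7302 and 6340.3 CPM in wild-type (log2 fold change −1.0 ± 0.13 (SE), adjusted p = 0.0014). *pmt-2*, a methyltransferase gene of the route to phosphatidylcholine, had 657, 677 and 623 CPM in *sma-3* libraries, against 1211, 1128 and 1099.6 CPM in wild-type (log2 fold change −0.81 ± 0.10 (SE), adjusted p = 0.0012). *mel-32*, the serine hydroxymethyltransferase, had 541, 552 and 486 CPM in *sma-3* libraries, against 961, 893 and 822 CPM in wild-type, and *mtrr-1*, which keeps methionine synthase active, had 211, 238 and 197 CPM in *sma-3* libraries, against 338, 345 and 333 CPM in wild-type. All 4 kept their call with any 1 library left out, without overlap. The member called higher, *sams-3*, lost its call when most single libraries were left out. The count of those lower was 5 without *sma-3* replicate 1 or 3. Propionate breakdown is linked to this cycle through vitamin B12. Of its 14 genes 5 were lower and none higher (median −0.32). *nhr-114*, a nuclear receptor that sets methionine cycle genes when B12 is low, had 129, 137 and 116 CPM in *sma-3* libraries, against 315, 317 and 308 CPM in wild-type (log2 fold change −1.29 ± 0.13 (SE), adjusted p = 0.00057). *mmaa-1*, of the B12-dependent route, had 95.8, 113 and 94.8 CPM in *sma-3* libraries, against 166, 173 and 128 CPM in wild-type, and *acdh-1*, the first enzyme of the B12-independent shunt, had 1969, 2308 and 1868 CPM in *sma-3* libraries, against 3364, 3928 and 2804 CPM in wild-type, with its call lost without *sma-3* replicate 3 (adjusted p 0.058). Both routes thus had members below wild-type. The count of the list was 3 without *sma-3* replicate 3 and 8 without wild-type replicate 3, which was the lowest wild-type library for all 14. The hypoxia and sulfide list had 5 of 11 lower, led by *cysl-2*, a cysteine synthase-like enzyme, with 69.1, 60.3 and 77.6 CPM in *sma-3* libraries, against 123, 132 and 147 CPM in wild-type (log2 fold change −0.95 ± 0.13 (SE), adjusted p = 0.0016).

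Detoxification families had calls in both directions. Of 54 cytochrome P450 genes 16 were lower and 11 higher, and of the family 50% was called, against 21.5% of all tested genes. *cyp-29A3* had 2.34, 2.38 and 2.94 CPM in *sma-3* libraries, against 10.2, 9.91 and 8.6 CPM in wild-type (log2 fold change −1.57 ± 0.10 (SE), adjusted p = 3.4e-05) and *cyp-35A3* had 9.42, 7.15 and 8.92 CPM in *sma-3* libraries, against 26.3, 32.6 and 26.5 CPM in wild-type, whereas *cyp-37B1* had 4.76, 4.04 and 3.57 CPM in *sma-3* libraries, against 0.538, 0.501 and 0.428 CPM in wild-type and *cyp-32B1* had 9.96, 9.07 and 12.8 CPM in *sma-3* libraries, against 2.29, 1.87 and 3.01 CPM in wild-type. Of 62 UDP-glucuronosyltransferases 13 were lower and 14 higher. The extremes were *ugt-63*, with 3.84, 3.69 and 4.95 CPM in *sma-3* libraries, against 22.4, 16.8 and 32.7 CPM in wild-type, and *ugt-1*, with 48, 54.1 and 60.4 CPM in *sma-3* libraries, against 15.6, 13.4 and 12 CPM in wild-type (log2 fold change 1.91 ± 0.12 (SE), adjusted p = 2.4e-05). None of these 6 genes overlapped between the genotypes. The number of P450 genes higher was 7, 4 and 3 without *sma-3* replicate 1, 2 and 3 and 5 without wild-type replicate 2, and that of ugt genes higher was 9, 7 and 6 without the 3 *sma-3* libraries. The number of ugt genes lower was 8 without *sma-3* replicate 2. Glutathione transferases had 4 of 33 lower and 5 higher, with 3 higher without *sma-3* replicate 2 or wild-type replicate 2 and 2 without *sma-3* replicate 3. Their share called (27.3%), like that of the 29 short-chain dehydrogenases (24.1%, with 5 lower and 2 higher, but 8 lower without wild-type replicate 2 and 0 higher without *sma-3* replicate 3), lay near that of all tested genes. ABC transporters had 7 of 29 lower and 4 higher, with *pgp-5* the furthest up (59.6, 77.2 and 91.4 CPM in *sma-3* libraries, against 30.2, 9.04 and 13.2 CPM in wild-type) and *haf-9*, of a lysosome-like gut organelle, among those down (274, 272 and 269.6 CPM in *sma-3* libraries, against 430.2, 429 and 408 CPM in wild-type).

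Families of immunity genes had no common direction. Of 12 lysozymes 5 were higher and none lower, with 2 higher among genes averaging at least 5 CPM. *ilys-2* had 5.5, 5.95 and 5.47 CPM in *sma-3* libraries, against 0.957, 0.206 and 0.656 CPM in wild-type (log2 fold change 2.08 ± 0.17 (SE), adjusted p = 0.00013), and *lys-7*, known from the response to bacteria, had 219, 145 and 119 CPM in *sma-3* libraries, against 50.9, 40.7 and 45.4 CPM in wild-type (log2 fold change 1.75 ± 0.19 (SE), adjusted p = 0.00072). In both genes the highest wild-type library lay far below the lowest *sma-3* library. Of 17 fungus-induced and thaumatin-like genes 11 were higher and none lower (median 1.12), but the count was 5 and 3 without *sma-3* replicate 2 and 3, 6 without wild-type replicate 2 or 3 and 14 without wild-type replicate 1. With no filter on level 5 were higher. The largest change was that of the thaumatin-like *thn-2*, with 11.5, 12.4 and 9.97 CPM in *sma-3* libraries, against 2.21, 1.61 and 1.23 CPM in wild-type (log2 fold change 2.21 ± 0.14 (SE), adjusted p = 3.0e-05). The fipr genes of this list are near copies and share reads. C-type lectins split, with 19 of 96 lower and 16 higher. *clec-4* had 50.2, 49.8 and 54.6 CPM in *sma-3* libraries, against 19.7, 15.3 and 15.9 CPM in wild-type (log2 fold change 1.56 ± 0.10 (SE), adjusted p = 2.4e-05) and *clec-180* had 158, 129 and 112 CPM in *sma-3* libraries, against 316, 345 and 365 CPM in wild-type (log2 fold change −1.37 ± 0.12 (SE), adjusted p = 0.00021). Those lower numbered 12 without *sma-3* replicate 2, and those higher 9, 8 and 8 without *sma-3* replicates 1, 2 and 3 and 9 without wild-type replicate 2. Of 23 saposin-like genes 6 were higher and 2 lower, and none of the lower was called without *sma-3* replicate 3. Of 13 genes for epidermal antimicrobial peptides 2 were lower and 3 higher, with 0 higher without *sma-3* replicate 2 or 3 or wild-type replicate 2. Transthyretin-like genes, a nematode family with 43 tested members, had 11 higher and 1 lower (median 0.24), with the decrease called only when no library or wild-type replicate 3 was left out. There were 6 or 7 higher without any 1 *sma-3* library or without wild-type replicate 2 and 16 without wild-type replicate 1. *ttr-33* had 28.9, 31.4 and 36.6 CPM in *sma-3* libraries, against 15.3, 12.3 and 8.52 CPM in wild-type (log2 fold change 1.38 ± 0.18 (SE), adjusted p = 0.0013).

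Of 192 nuclear hormone receptors 30 were higher and 8 lower (median 0.12). *nhr-235* had 8.27, 8.39 and 10.6 CPM in *sma-3* libraries, against 3.32, 3.31 and 1.17 CPM in wild-type (log2 fold change 1.55 ± 0.28 (SE), adjusted p = 0.0056) and *nhr-127* had 2.21, 3.24 and 2.67 CPM in *sma-3* libraries, against 0.852, 0.913 and 0.542 CPM in wild-type. The number higher was 14 to 20 with any library but wild-type replicate 3 left out and 44 without that one, and the number lower was 4 without *sma-3* replicate 2 or 3. Of 10 bZIP factors 4 were higher and 1 lower, and *zip-1* was the member higher with any 1 library left out, with 31.5, 30.1 and 30.0 CPM in *sma-3* libraries, against 21.5, 19 and 22 CPM in wild-type (log2 fold change 0.53 ± 0.08 (SE), adjusted p = 0.0026). Without *sma-3* replicate 2 or without *sma-3* replicate 3, only *zip-1* was called among them. Among genes of the flp and nlp families, 9 of 30 flp genes and 12 of 63 nlp genes were higher and none was lower, and the other 21 and 51 were not called. The nlp genes were taken by name, whatever the tissue that makes them, and not all need be neuropeptide genes. The medians were 0.16 and 0.17, with pan-neuronal markers at 0.04. Without wild-type replicate 3, the lowest wild-type library for 39 nlp genes, the nlp median was 0.073 and 1 flp gene and 2 nlp genes were lower. *flp-24* had 40.9, 38.4 and 40.2 CPM in *sma-3* libraries, against 28.8, 29.9 and 25.4 CPM in wild-type (log2 fold change 0.49 ± 0.08 (SE), adjusted p = 0.0040) and *flp-8* had 34.8, 36.2 and 33.2 CPM in *sma-3* libraries, against 26.1, 23.9 and 19.1 CPM in wild-type (log2 fold change 0.58 ± 0.11 (SE), adjusted p = 0.0057). The flp count was 6 and 4 without *sma-3* replicate 1 and 2, and the nlp count 5, 7 and 8 without *sma-3* replicate 2, *sma-3* replicate 3 and wild-type replicate 2. Of 20 insulin-like peptides 1 was higher, *ins-7* (0.980, 0.822 and 1.03 CPM in *sma-3* libraries, against 0.344, 0.236 and 0.171 CPM in wild-type), which acts on the insulin receptor, and 1 lower, *ins-35*, which was not called without any 1 of the *sma-3* libraries or without wild-type replicate 2. *ins-7* lay near or under 1 CPM in both genotypes and passed the filter only with the *sma-9* libraries. Homeobox genes had 1 call in each direction among 42, genes of the insulin receptor pathway 1 lower among 10, and helix-loop-helix factors 1 higher among 8. Without wild-type replicate 3, 6 homeobox genes and 2 helix-loop-helix factors were higher, and the calls in the insulin receptor pathway and among helix-loop-helix factors were lost without *sma-3* replicate 2 or 3.

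The list of 14 small and inducible heat shock genes had a median log2 fold change of −1.60, but only *hsp-17* was called. *hsp-16.2*, chosen after its values were seen like the 2 genes that follow, had 1.23, 0.788 and 0.778 CPM in *sma-3* libraries, against 45.8, 15 and 0.941 CPM in wild-type. *hsp-70* had 0.917, 0.939 and 0.900 CPM in *sma-3* libraries, against 30.2, 12.4 and 0.499 CPM in wild-type, and its relative F44E5.5 had 1.87, 1.83 and 1.84 CPM in *sma-3* libraries, against 85.1, 36.9 and 1.88 CPM in wild-type. F44E5.5 had 26.6, 13.7 and 15.2 CPM in the *sma-9* libraries, which lie between. Wild-type replicates 1 and 2 were high, while wild-type replicate 3 stood at the level of the *sma-3* libraries, and none of the 3 genes was called by limma or by voom, although for *hsp-16.2* the log2 fold change was −2.56. Without wild-type replicate 3, 9 of the list were called lower. The cytosolic chaperones had 4 of 22 lower, led by *hsp-110* (323, 312 and 316 CPM in *sma-3* libraries, against 680.4, 574 and 398 CPM in wild-type), with 10 lower without wild-type replicate 3, 2 without *sma-3* replicate 1, 1 without wild-type replicate 1 or 2, and 0 without *sma-3* replicate 2 or 3. All 22 were lowest among wild-type libraries in replicate 3. F44E5.5 is among the 31 genes under one eighth of wild-type counted above.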

How the data were processed

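The authors sequenced polyA RNA as paired ends, and STAR 2.5.1a gave read counts per gene on WS245. The authors deposited the log2 of normalized CPM from edgeR, with a prior averaging 2 reads added. How strand and multiply matching reads were handled, and whether genes were filtered, is not given in the sources used here, so that overlapping, antisense and near-identical genes are uncertain. The prior was removed, and 100% of the values below 1000 reads were then whole within 0.1 read in every library. Of the gene IDs 46821 matched the WBcel235 annotation.

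Genes reaching 1 CPM in 3 or more of the 9 libraries were tested as log2(CPM + 1) in limma 3.58.1 (R 4.3.3; tables and plots with Python 3.11.15, pandas 2.3.3, numpy 2.4.6 and matplotlib 3.10.9), with 1 coefficient per genotype over all 9 libraries, an intensity trend and Benjamini-Hochberg adjustment over all tested genes. All adjusted p-values are from limma. Fold changes on this scale understate the change of weakly expressed genes. A gene under 1 CPM in wild-type could pass the filter through its *sma-3* values alone, so that calls of higher among such genes depend in part on the filter. A list is given by counts and a median, and no list was tested. Named were the DBL-1 pathway genes, per direction the 12 called genes with the largest change and no overlap, up to 4 called members with the largest change per direction in each list described, and the genes of stretches. Others were chosen after their values were seen. The genes and lists were chosen with earlier results of these data known. The study describes the replicates as biological, and the titles of the libraries give only their numbers. The alternatives were other pseudocounts, filters, scalings and thresholds, voom, a replicate block, and each library left out in turn. The model was tested on simulated data.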

Additional observations from a re-analysis of the deposited data

How the results depend on the processing

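The main test called 1596 genes lower and 1227 higher. An adjusted p of at most 0.01 left 668 and 459, and a change of at least 2-fold left 151 and 376. Equal library totals gave 878 lower and 1567 higher. With 1 library left out, the numbers ranged from 784 to 1864 lower and from 545 to 1427 higher. The lowest came without *sma-3* replicate 2 (lower) and without *sma-3* replicate 3 (higher), and the highest, in both directions, without wild-type replicate 3. The remaining alternatives (pseudocounts of 0.25 and 4, no filter, a mean of at least 5 CPM, quantile normalization, voom on the recovered reads and the 6 libraries alone) and leaving out the 17 genes of stretches, which was chosen after seeing the data, moved neither count by more than 1.5 times. With a replicate block 1188 genes were lower and 893 higher. The replicate numbers do not pair the samples: deviations of same-numbered libraries correlated at −0.39, 0.40 and −0.15 across genes, and not every sample correlated best with its own number. Of 349 called genes that the rules name, 224 kept their call in all 15 alternatives that could be fitted, and 0 of the 5174 values changed direction.

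Limits are the 3 libraries per genotype, the wider spread of the wild-type libraries, of which replicate 3 stands apart, and the late L2 stage, at which moulting genes change quickly. Wild-type replicate 3 was lowest or highest for most members of many lists, and the part of stage in any difference was not tested. Depth limited the weakest genes: levels under the 3 reads that correspond to 0.0365 to 0.0503 CPM in *sma-3* and 0.0428 to 0.0449 CPM in wild-type libraries cannot be told from 0. These floors cover counting error only.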

Other observations

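Gene families beyond the lists were read by the prefix of the gene name, among 175 families with at least 8 tested genes, and those given here were chosen after their values were seen. Of 9 ddx genes, for RNA helicases, 7 were lower in *sma-3* and 0 higher (median log2 fold change −0.42). *ddx-52* had 61.5, 58 and 59.3 CPM in *sma-3* libraries, against 88.1, 91.7 and 93 CPM in wild-type (log2 fold change −0.60 ± 0.08 (SE), adjusted p = 0.0013), and *ddx-46*, a helicase of the spliceosome, had 87.5, 84.3 and 83 CPM in *sma-3* libraries, against 139, 143 and 121 CPM in wild-type (log2 fold change −0.65 ± 0.10 (SE), adjusted p = 0.0023). Of 13 prp genes, for splicing factors, 8 were lower and 0 higher, among them *prp-31* with 58.6, 57.9 and 60.2 CPM in *sma-3* libraries, against 84.1, 80.2 and 76.8 CPM in wild-type. The named ddx and prp genes lay below wild-type in every *sma-3* library, as did all 1596 genes called lower. A link to the ribosome biogenesis factors was not tested.

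Of 8 bus genes, several of which are known to shape the surface coat of the cuticle to which bacteria attach, 6 were lower and 0 higher. *bus-17* had 15.8, 14.8 and 15.5 CPM in *sma-3* libraries, against 21.7, 25.6 and 23.9 CPM in wild-type (log2 fold change −0.60 ± 0.09 (SE), adjusted p = 0.0021), and *bus-1* had 4.05, 3.00 and 3.03 CPM in *sma-3* libraries, against 7.66, 6.63 and 10.5 CPM in wild-type (log2 fold change −1.07 ± 0.22 (SE), adjusted p = 0.010). Of 12 atg genes, for autophagy, 5 were higher and 0 lower. *atg-9*, the membrane protein of the family, had 50.0, 54.8 and 52.5 CPM in *sma-3* libraries, against 34.8, 35.8 and 35.8 CPM in wild-type (log2 fold change 0.55 ± 0.06 (SE), adjusted p = 0.00087), and *atg-18*, a lipid-binding WD40 protein, had 73.9, 69.8 and 73.7 CPM in *sma-3* libraries, against 49.6, 53.9 and 49.9 CPM in wild-type (log2 fold change 0.50 ± 0.07 (SE), adjusted p = 0.0017). No library of these 4 genes overlapped between genotypes, as in nearly all called genes.

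Families of small secreted peptides split by name. All 8 tested nspb genes were higher, with *nspb-1* at 6.42, 7.16 and 12 CPM in *sma-3* libraries, against 2.27, 1.24 and 0.685 CPM in wild-type, and 9 of 14 tested nspc genes were lower, with *nspc-19* at 6.29, 9.23 and 8.22 CPM in *sma-3* libraries, against 19, 23.3 and 16.7 CPM in wild-type. A gene low in wild-type can pass the filter through its *sma-3* values alone, so that the count of 8 of 8 is not a result about the nspb family. Members of each family are near copies, so that single values are uncertain. By chromosome, the share of tested genes called higher was lowest on chromosome I (5.7%) and highest on chromosome V (13.5%), and the share called lower ran from 10.2% on the X to 14.3% on chromosome II.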
